A study of Mus musculus with 12 samples.

Results

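The cytosolic ribosomal protein genes were followed in livers of 12 male C57BL6J mice at 30 weeks of age. Genes were taken by name: those whose only symbol in the array's annotation was Rpl or Rps with a digit, or Rplp0, Rplp1, Rplp2 or Rpsa, without the Rps6k kinases and without annotated pseudogene names. The rule gave 50 of the 18193 genes with a probe set of 1 symbol: 22 proteins of the large subunit, 21 of the small subunit and 7 others. The others were Rpl22l1, Rpl39l, Rpl3l, Rps27l and Rpl7l1, which resemble standard members, Rps19bp1, whose product binds the ribosomal protein Rps19, and Rps4l, which the RefSeq gene table lists as a transcribed pseudogene. Further ribosomal protein genes, among them Rpl5 and Rplp1, had no probe set with a single symbol and could not be members. Each gene was read from its probe set of highest mean. The test covered 47 members of 13788 genes that passed a floor on signal (log2 5.0 on at least 3 arrays). Rps16, Rpl39l and Rpl3l lay below it on these probe sets, at 3.38 to 3.69, 3.97 to 4.62 and 3.59 to 4.04 over the 12 arrays, and have no level to compare. A probe set at that level says nothing of the transcript elsewhere on its length, and Rps16 was measured by 1 probe set.

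Ribosomal proteins are set around ribosomal RNA in a large and a small subunit, which together translate mRNA. Their genes are transcribed at a high rate in liver, a tissue that makes much of the protein in plasma, and the proteins made in excess are degraded. Translation of their mRNAs, which start with a run of pyrimidine bases (the TOP motif), rises when the growth-sensing kinase mTORC1 is active, so mRNA level and protein output can part.

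The mice fall into 4 groups of 3, 1 array per mouse: control mice on chow, penicillin mice on chow, control mice on high-fat diet and penicillin mice on high-fat diet. Penicillin was given at 6.7 mg/L in the drinking water, and control mice had no antibiotic. Every mouse began on chow with 13.5% of its energy as fat, and the high-fat groups were moved at 17 weeks of age to a diet with 45% of energy as fat. The labels name no engineered allele, and whether cage or litter moved with a group was not tested. Values are log2 levels, on which a difference of 1 is a doubling. They are scaled so that the arrays share a distribution, so each difference is set against the genes at large. In bulk liver, fewer cells of a type and less RNA per cell cannot be told apart.

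The starts of the 7 members that passed a test below are shown first, since the TOP motif lies at the start of the mRNA. RefSeq promoters (assembly GRCm38.p6) were found for 44 of the 50 members; Rpl7, Rpl8, Rps14, Rps20, Rps29 and Rps4l had no entry. Each line gives 40 bases before the annotated start of transcription and 20 bases from it on, 5′ to 3′ on the gene's strand, with the longest run of C and T that touches the window from 10 bases before to 20 bases after the start in capitals. Where the run meets the edge of what is shown, it continues beyond. Rpl10a and Rps27l have 2 annotated starts each.
Rpsa, chr9:120127726-120127785, plus strand: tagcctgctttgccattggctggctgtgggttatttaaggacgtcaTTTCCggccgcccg
Rps26, chr10:128626487-128626546, minus strand: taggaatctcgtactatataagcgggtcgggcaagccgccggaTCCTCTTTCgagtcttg
Rps15, chr10:80292391-80292450, plus strand: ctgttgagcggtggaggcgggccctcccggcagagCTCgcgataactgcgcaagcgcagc
Rpl10a, start 1, chr17:28328431-28328490, plus strand: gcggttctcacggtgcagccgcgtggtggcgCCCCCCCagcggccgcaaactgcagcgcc
Rpl10a, start 2, chr17:28328525-28328584, plus strand: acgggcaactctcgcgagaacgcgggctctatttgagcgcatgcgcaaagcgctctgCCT
Rpl4, chr9:64173347-64173406, plus strand: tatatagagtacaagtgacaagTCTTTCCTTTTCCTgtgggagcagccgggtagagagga
Rpl22l1, chr3:28805468-28805527, plus strand: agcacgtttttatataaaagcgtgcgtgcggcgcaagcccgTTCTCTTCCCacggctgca
Rps27l, start 1, chr9:66946046-66946105, plus strand: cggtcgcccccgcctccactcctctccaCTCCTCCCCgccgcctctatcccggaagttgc
Rps27l, start 2, chr9:66946373-66946432, plus strand: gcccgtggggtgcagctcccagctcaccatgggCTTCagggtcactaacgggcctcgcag

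The capitals differ among these 7 genes. Rpl4 has a run of 14 bases, Rpl22l1 of 10 and Rps26 of 9, while Rps15 has 3 and Rpsa 5. Rps27l has 9 at its first start and 4 at the second. Rpl10a has 7 at its first start and 10 at the second, where the run begins 18 bases into the transcript. The runs of Rpl4 and Rps15, of both Rps27l starts and of the first Rpl10a start end before the annotated start. Those of Rpl22l1, Rps26 and Rpsa begin at bases 2, 4 and 7 of the transcript. A run counted here is thus not in itself a TOP motif. A run of at least 8, whether before or after the start, was present at 22 of the 44 members (50%). It was present at 19.2% of the 27025 genes of the promoter table, which also holds non-coding genes. The median longest run was 7.5 bases in the members and 5 in the table. Over the window from 250 bases before to 50 after the start, on either strand, the letters CCGGAAG, a core that ETS factors bind, were found at 47.7% of members and 9.93% of the table's genes. ATGGCG, a core of the YY1 site, was found at 36.4% and 10.2%, and the GC box GGGCGG at 59.1% and 38.2%. The TATA box letters TATAAA stood at 13.6% and 15.7%, and the E-box CACGTG, which MYC and other factors bind, at 9.09% and 8.09%. The ATGGCG letters may also cover a translation start, and the median share of C and G was 56.5% in members and 52.8% in the table. A match is a description of letters, not a site shown to be bound. Of the 7 genes printed, Rpsa, Rps26 and Rps27l held CCGGAAG and the other 4 did not.

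Before the comparisons, the arrays were set against each other over the 47 members. Each member was centred on its own mean over the 12 arrays, and the median was taken per array. It was 0.07, 0.13 and 0.05 in control mice on chow, 0.04, -0.09 and 0.02 in penicillin mice on chow, 0.02, 0.00 and 0.01 in control mice on high-fat diet and -0.06, -0.14 and -0.06 in penicillin mice on high-fat diet. The 3 untreated chow mice were the highest and the 3 mice with both exposures were lower than all others but penicillin chow 2. Single arrays weighed on this: 30 of the 47 members (63.8%) had their highest value in control chow 2, where 7.79% of all genes did, and 23 (48.9%) had their lowest in penicillin high-fat 2, where 8.03% of all genes did. Another 13 (27.7%) were lowest in penicillin chow 2, where 8.4% of all genes were. The signal of the 18S ribosomal RNA control probes, a measure of carried ribosomal RNA and of labelling, was 11.76, 11.77 and 11.81 in penicillin chow 2, penicillin chow 3 and penicillin high-fat 2 and 12.67 to 13.87 in the other 9 arrays. Penicillin chow 2 and penicillin high-fat 2 held the lowest member medians, while penicillin chow 3, with as low an 18S signal, stood at 0.02. Results below are given again without these 3 arrays where they change.

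**Figure D1:**
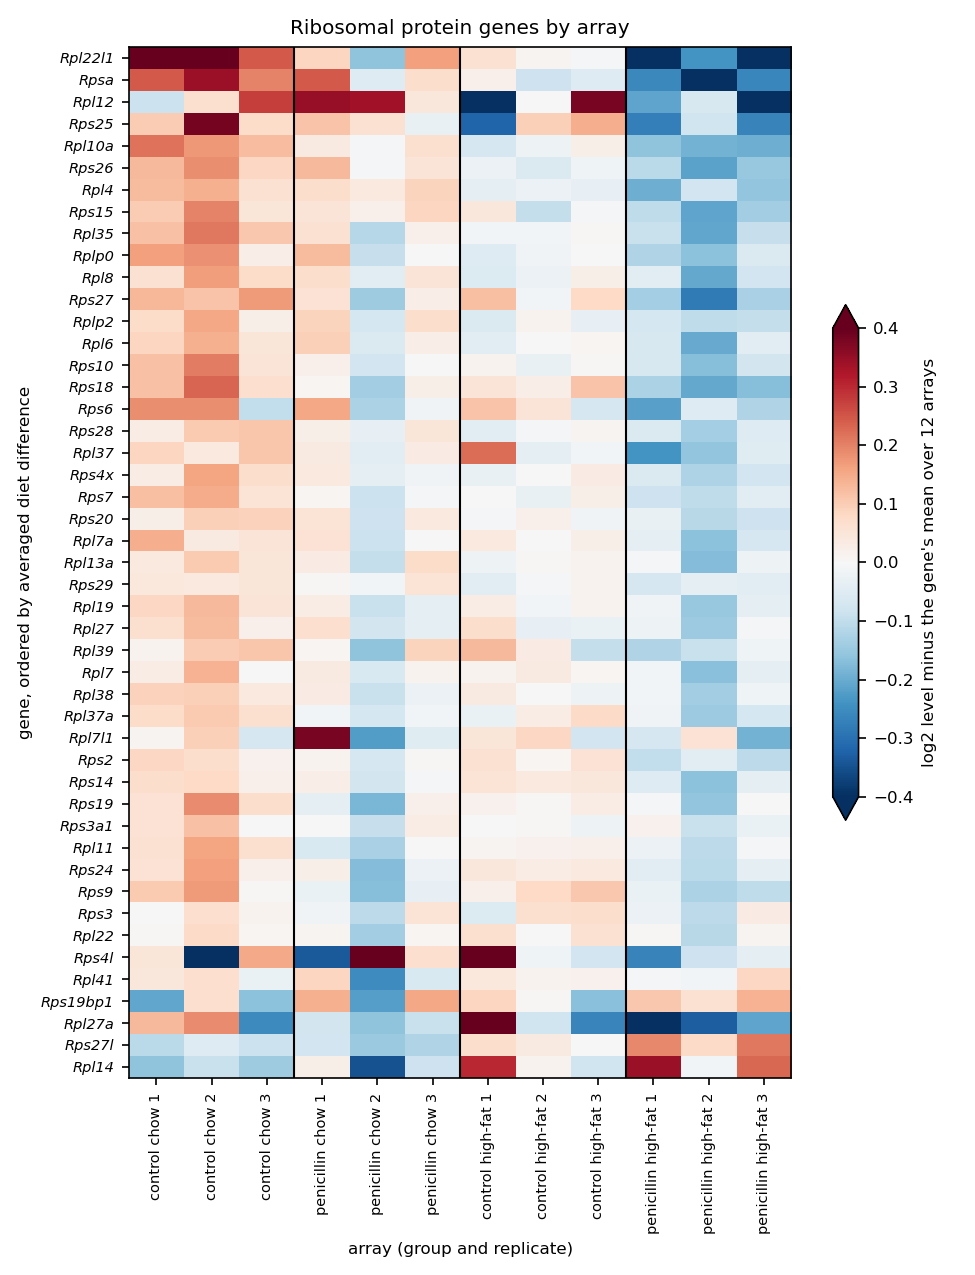
Log2 level of each tested ribosomal protein gene minus that gene's mean over the 12 arrays (colour, clipped at 0.4 either way), for the 47 genes (rows, ordered by the averaged diet difference) and the 12 mice (columns, black lines between groups). Control mice on chow are mostly red, penicillin mice on high-fat diet mostly blue, and Rps27l and Rpl14 at the foot run the other way.

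**Figure D2:**
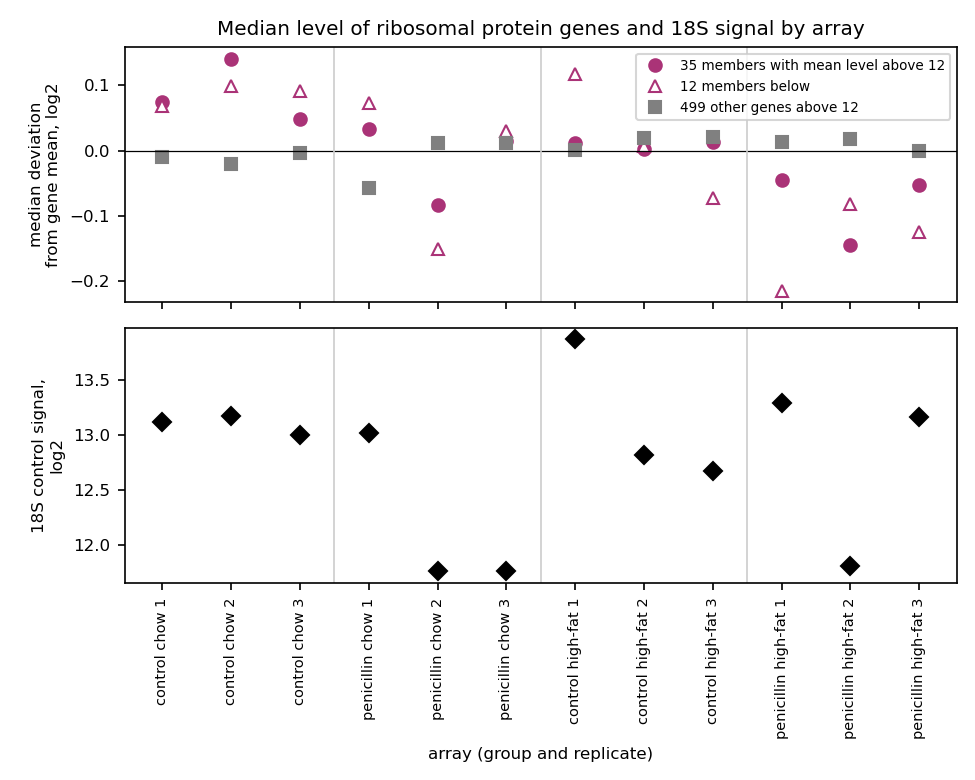
Upper panel, median deviation from the gene mean (log2) per array for the 35 members with a mean level above 12, the 12 members below it and 499 other genes above it; lower panel, log2 signal of the 18S control probes on the same arrays. The bright members spread from 0.14 in control chow 2 to -0.14 in penicillin high-fat 2, while the other bright genes stay between -0.06 and 0.02.

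Most members varied little between mice of a group. Their median residual SD was 0.06 against 0.13 over all genes tested, and the median standard error of a difference between groups was 0.07 against 0.10. Much of this gap goes with signal level. Among genes with a mean level above 12, the median residual SD was 0.06 in 35 members and 0.08 in 499 other genes. In the 12 dimmer members it was 0.16. The 5 members with the widest residual SD were Rpl27a (0.52), Rpl12 (0.30), Rps4l (0.30), Rpl7l1 (0.18) and Rps25 (0.17). Rpl27a, a large subunit protein, stood at 10.08 in control high-fat 1 and at 8.11 to 8.71 in the other 11 mice, so its wide SD rests on 1 array. Its second probe set, with a mean of 3.54, was below the floor and gives no second reading.

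High-fat diet, averaged over control and penicillin mice, moved 7 of the 47 members past the threshold (limma, Benjamini-Hochberg over 13788 genes, adjusted p under 0.05). Rpsa, Rpl22l1, Rpl10a, Rps26, Rpl4 and Rps15 fell, and Rps27l rose. Over all genes 14.5% passed this test, and 14.9% of the members did, a share near that of all genes. The directions were uneven: 6 members (12.8%) were lower where 4.85% of all genes were, and 1 (2.13%) was higher where 9.63% of all genes were. The median difference over the members was -0.07, with 40 of 47 (85.1%) below 0, against a median of -0.01 and 52.3% below 0 over all genes. At an unadjusted p under 0.05, 15 members (31.9%) were lower and 2 (4.26%) higher, where 13% and 17.1% of all genes were.

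The small subunit protein Rpsa, also known as the laminin receptor, had the smallest adjusted p. Rpsa stood at 12.80, 12.90 and 12.76 in control mice on chow, 12.80, 12.51 and 12.63 in penicillin mice on chow, 12.58, 12.48 and 12.51 in control mice on high-fat diet and 12.30, 12.14 and 12.30 in penicillin mice on high-fat diet. Penicillin chow 2 reached the level of the control mice on high-fat diet, so the 6 chow and 6 high-fat mice overlapped, while within each treatment the 3 high-fat mice lay below the 3 chow mice. The averaged difference was -0.35 ± 0.06 (SE), or 0.785-fold (limma, adjusted p = 0.00402). A second Rpsa probe set, with a mean of 3.73, lay below the floor. Averaging it in gave -0.19 (limma, adjusted p = 0.0523).

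Rpl22l1, a paralog of the large subunit protein Rpl22, had the largest difference of the called members. Rpl22l1 stood at 11.91, 11.93 and 11.69 in control mice on chow, 11.53, 11.28 and 11.61 in penicillin mice on chow, 11.50, 11.45 and 11.44 in control mice on high-fat diet and 10.88, 11.20 and 10.88 in penicillin mice on high-fat diet. Control mice on chow were the highest group, penicillin mice on high-fat diet the lowest, and the other 2 groups lay between them and overlapped each other. The averaged diet difference was -0.43 ± 0.08, or 0.74-fold (limma, adjusted p = 0.00497). Rpl22 itself differed by 0.01 ± 0.05 (limma, adjusted p = 0.915), with its 12 values between 12.71 and 12.92; it was added after its values were seen.

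Rpl10a, which forms the mobile stalk of the large subunit at the exit site for transfer RNA, fell with a tight spread. Rpl10a stood at 13.19, 13.15 and 13.10 in control mice on chow, 13.01, 12.96 and 13.04 in penicillin mice on chow, 12.90, 12.95 and 13.00 in control mice on high-fat diet and 12.81, 12.78 and 12.78 in penicillin mice on high-fat diet. All 3 penicillin mice on high-fat diet lay below every other mouse. The averaged diet difference was -0.20 ± 0.04 (limma, adjusted p = 0.0109).

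Rps26, a small subunit protein near the channel where mRNA leaves, separated the diets completely. Rps26 stood at 13.18, 13.23 and 13.13 in control mice on chow, 13.18, 13.04 and 13.10 in penicillin mice on chow, 13.02, 12.99 and 13.03 in control mice on high-fat diet and 12.94, 12.83 and 12.90 in penicillin mice on high-fat diet. All 6 high-fat mice lay below all 6 chow mice, by -0.19 ± 0.05 (limma, adjusted p = 0.0187). Rpl4, which lines the tunnel through which the new protein leaves, did the same. Rpl4 stood at 13.22, 13.23 and 13.15 in control mice on chow, 13.16, 13.13 and 13.18 in penicillin mice on chow, 13.05, 13.07 and 13.06 in control mice on high-fat diet and 12.90, 13.02 and 12.94 in penicillin mice on high-fat diet. Its difference was -0.18 ± 0.04 (limma, adjusted p = 0.0212). Rps26 and Rpl4 were 2 of 47 members (4.26%) with no overlap of the 6 chow and 6 high-fat mice on the lower side, where 2.14% of all genes had none.

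Rps15, a small subunit protein needed for export of the subunit from the nucleus, fell by the smallest amount. Rps15 stood at 12.64, 12.73 and 12.58 in control mice on chow, 12.59, 12.56 and 12.62 in penicillin mice on chow, 12.58, 12.44 and 12.53 in control mice on high-fat diet and 12.43, 12.32 and 12.40 in penicillin mice on high-fat diet. The diets overlapped only in that penicillin chow 2 (12.56) lay below control high-fat 1 (12.58). Its difference was -0.17 ± 0.05 (limma, adjusted p = 0.0408), and it passed in 1 of the 12 refits with an array removed.

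Rps27l, a paralog of Rps27 that p53 is known to induce, was the member that rose. Rps27l stood at 12.85, 12.91 and 12.88 in control mice on chow, 12.89, 12.81 and 12.84 in penicillin mice on chow, 13.03, 13.00 and 12.96 in control mice on high-fat diet and 13.15, 13.04 and 13.17 in penicillin mice on high-fat diet. All 6 high-fat mice lay above all 6 chow mice, and the averaged difference was 0.20 ± 0.05, or 1.15-fold (limma, adjusted p = 0.0154). The 2 further probe sets of the gene gave 0.13 each, in the same direction. Its paralog Rps27, read from 1 much dimmer probe set between 6.77 and 7.23, stood at -0.12 ± 0.05 (limma, adjusted p = 0.159). Rpl14, a large subunit protein read from a probe set between 5.62 and 6.32, close to the floor, was also higher but missed the threshold, at 0.27 ± 0.09 (limma, adjusted p = 0.0668).

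**Figure D3:**
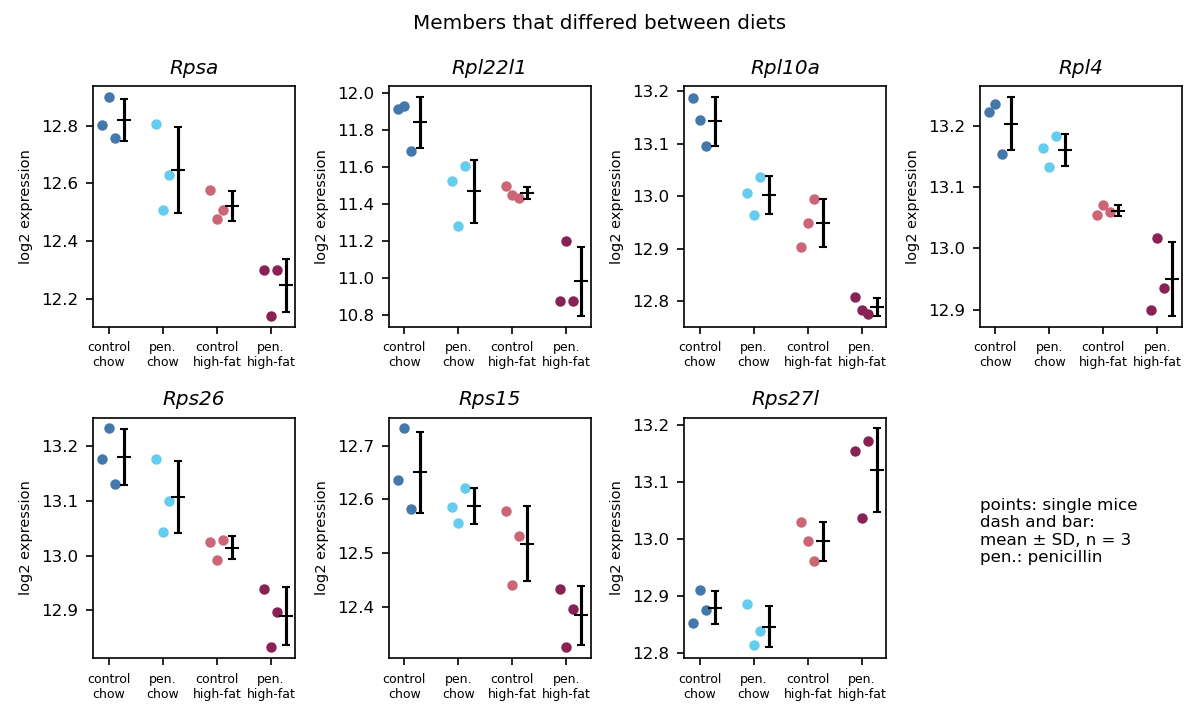
Log2 level of the 7 members that passed the averaged diet test, by group (points, single mice; dash and bar, mean ± SD, n = 3). In each panel of a gene that fell, the mean is highest in control mice on chow and lowest in penicillin mice on high-fat diet, and Rps27l runs from 12.81 to 12.91 on chow to 12.96 to 13.17 on high-fat diet; each axis has its own range.

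The 7 calls did not all stand on the same ground. Rpsa, Rpl22l1, Rpl10a, Rps27l and Rps26 passed in each of the 12 refits with an array removed, and Rpl4 in 10, not without control chow 2 or penicillin high-fat 1. Without the 3 arrays of low 18S signal, Rpsa, Rpl22l1 and Rps26 passed and the other 4 did not: Rpl10a stood at -0.20 (limma, adjusted p = 0.0562), Rps27l at 0.20 (0.0539), Rpl4 at -0.19 (0.0569) and Rps15 at -0.15 (0.164). Rps27l did not pass when probe sets marked as open to cross-hybridisation were left out (0.13, adjusted p = 0.107, limma).

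Within treatments the diet comparison asks the same question with 3 mice a side. In control mice 0 of 47 members passed (0.899% of all genes did), with a median of -0.07 and a smallest adjusted p of 0.126 for Rpsa (limma, -0.30 ± 0.09). At an unadjusted p under 0.05, 5 members (10.6%) were lower and 0 higher, where 6.59% and 8.51% of all genes were. The next by p were Rpl22l1 (-0.38 ± 0.11), Rpl10a (-0.19 ± 0.06), Rps26 (-0.17 ± 0.07), Rpl4 (-0.14 ± 0.06), Rpl35 (-0.15 ± 0.07), Rps15 (-0.13 ± 0.07) and Rplp0 (-0.14 ± 0.08). In 21 members (44.7%) the 3 high-fat mice lay below the 3 chow mice, where 10.4% of all genes did so. In penicillin mice 3 members passed where 8.32% of all genes did: Rpsa by -0.40 ± 0.09 and Rpl22l1 by -0.49 ± 0.11 were lower (2 of 47, 4.26%, against 1.89% of all genes) and Rps27l by 0.27 ± 0.06 was higher (2.13%, against 6.43%). Their adjusted p were 0.0169, 0.0221 and 0.0228 (limma). The 3 calls dropped to 1 without penicillin chow 3, penicillin high-fat 1 or penicillin high-fat 3, and to 0 when only the 6 arrays compared were fitted. Non-overlap on the lower side held for 13 members (27.7%, against 12.3% of all genes). It held in both treatments, on different mice, for 8 members (17%), where 3.63% of all genes met both conditions: Rpl10a, Rpl22l1, Rpl4, Rps15, Rps26, Rps28, Rps29 and Rpsa. The members were read on the same arrays, so a count of members is not a count of independent readings.

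Penicillin, averaged over the diets, moved 0 of 47 members past the threshold (limma; 0.145% of all genes passed). The median difference was -0.10 against 0.00 over all genes, and 44 of 47 members (93.6%) were below 0, where 51.6% of all genes were. All 20 small subunit members tested were below 0, as were 21 of 22 of the large subunit, the exception being Rpl14. At an unadjusted p under 0.05, 16 members (34%) were lower and 0 higher, where 5.77% of all genes were lower.

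Rpl22l1 came closest, at -0.42 ± 0.08 (limma, adjusted p = 0.0743). Its 3 penicillin mice lay below the 3 controls on each diet, as the values above show. The call moved with single arrays and settings: without penicillin high-fat 2 it was -0.48 (limma, adjusted p = 0.0252), and over its 24 alternatives the adjusted p ran from 0.0199 to 0.188.

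Rps18, a small subunit protein at the interface to the large subunit, was next. Rps18 stood at 13.10, 13.22 and 13.05 in control mice on chow, 12.99, 12.85 and 13.01 in penicillin mice on chow, 13.04, 13.01 and 13.10 in control mice on high-fat diet and 12.86, 12.78 and 12.81 in penicillin mice on high-fat diet. Every penicillin mouse lay below every control mouse across both diets, though the closest pair both round to 13.01. The averaged difference was -0.20 ± 0.05, which missed the threshold (limma, adjusted p = 0.163). Rps9, a small subunit protein that helps to keep decoding accurate, and Rpl11, which with Rpl5 forms a particle that can bind the p53 inhibitor Mdm2, had the same separation. Rps9 stood at 13.10, 13.17 and 13.00 in control mice on chow, 12.97, 12.82 and 12.96 in penicillin mice on chow, 13.01, 13.07 and 13.10 in control mice on high-fat diet and 12.97, 12.87 and 12.89 in penicillin mice on high-fat diet. Rpl11 stood at 12.88, 12.97 and 12.88 in control mice on chow, 12.75, 12.69 and 12.82 in penicillin mice on chow, 12.83, 12.83 and 12.84 in control mice on high-fat diet and 12.79, 12.71 and 12.81 in penicillin mice on high-fat diet. The differences were -0.16 ± 0.05 (adjusted p = 0.247) and -0.11 ± 0.05 (adjusted p = 0.377, limma). For Rpl11 the gap was narrow, 12.83 against 12.82. These 3 members (6.38%) had no overlap of the 6 penicillin and 6 control mice on the lower side, where 0.276% of all genes had none.

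The remaining genes with small p for penicillin were Rps27, a zinc finger protein of the small subunit (-0.20 ± 0.05), Rpsa (-0.22 ± 0.06), Rpl10a (-0.15 ± 0.04), Rpl35 (-0.14 ± 0.05) and Rps10 (-0.12 ± 0.05). Their adjusted p lay between 0.188 and 0.349 (limma). Rps19bp1, at 0.13 ± 0.08, Rpl14, at 0.05 ± 0.09, and Rps27l, at 0.05 ± 0.05, were the 3 members above 0.

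On chow 0 members passed for penicillin (0.00725% of all genes, 1 gene), with a median of -0.09 and 43 of 47 (91.5%) below 0, where 52.2% of all genes were. At an unadjusted p under 0.05, 8 (17%) were lower and 0 higher, where 4.86% and 2.76% of all genes were. The smallest p belonged to Rpl22l1 (-0.37 ± 0.11), Rpl11 (-0.16 ± 0.07), Rps18 (-0.18 ± 0.07), Rps9 (-0.17 ± 0.07), Rpl10a (-0.14 ± 0.06), Rps19 (-0.17 ± 0.08), Rpl35 (-0.16 ± 0.07) and Rps7 (-0.14 ± 0.06), with adjusted p of 0.527 and above (limma). The 3 penicillin mice lay below the 3 controls in 15 members (31.9%), where 7.04% of all genes did so. On high-fat diet 0 members passed as well (0.341% of all genes), with a median of -0.09 and 44 of 47 (93.6%) below 0, where 50.2% of all genes were. At an unadjusted p under 0.05, 6 (12.8%) were lower and 0 higher, where 3.86% and 6.27% of all genes were. Rpl22l1 (-0.48 ± 0.11, adjusted p = 0.12, limma) was followed by Rps18 (-0.23 ± 0.07), Rps27 (-0.25 ± 0.08), Rpsa (-0.27 ± 0.09), Rpl10a (-0.16 ± 0.06), Rpl37 (-0.21 ± 0.08), Rps9 (-0.15 ± 0.07) and Rps14 (-0.13 ± 0.06). Rpl22l1 passed on this diet when penicillin high-fat 2 was left out (-0.59, limma adjusted p = 0.0396). Non-overlap on the lower side held for 26 members (55.3%), where 7.85% of all genes showed it. In 13 members (27.7%) it held on both diets, which use different mice, where 0.943% of all genes met both conditions: Rpl10a, Rpl11, Rpl19, Rpl22l1, Rpl35, Rpl37, Rps10, Rps18, Rps19, Rps2, Rps27, Rps7 and Rps9. The members share arrays, with 30 of the 47 highest in control chow 2 and 23 lowest in penicillin high-fat 2. Such counts are therefore not counts of independent readings. Without the 3 arrays of low 18S signal, all of them from penicillin mice, the median averaged penicillin difference was -0.06 in place of -0.10, and Rpl22l1 alone passed, at -0.45 (limma, adjusted p = 0.0199).

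The interaction asks whether the penicillin difference depended on the diet. It passed for 0 of 47 members (limma; 0.0435% of all genes passed), with 0 members at an unadjusted p under 0.05 in either direction and a median of -0.01 against 0.01 over all genes. Its median standard error, 0.10, was as large as the shifts themselves, so a difference between diets of that size was not detectable with 3 mice a group. The smallest p belonged to Rps27l (0.16 ± 0.09, adjusted p = 0.866, limma), followed by Rps4l (-0.39 ± 0.30), Rpl27a (-0.59 ± 0.50), Rpl37 (-0.14 ± 0.12), Rpl12 (-0.32 ± 0.30), Rpl11 (0.10 ± 0.09), Rps19 (0.10 ± 0.11) and Rpl41 (0.10 ± 0.12). The value of Rpl27a rests on control high-fat 1, without which it was -0.01. The diet and the penicillin comparisons share arrays, so their values stand side by side and no correlation between them is given.

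**Figure D4:**
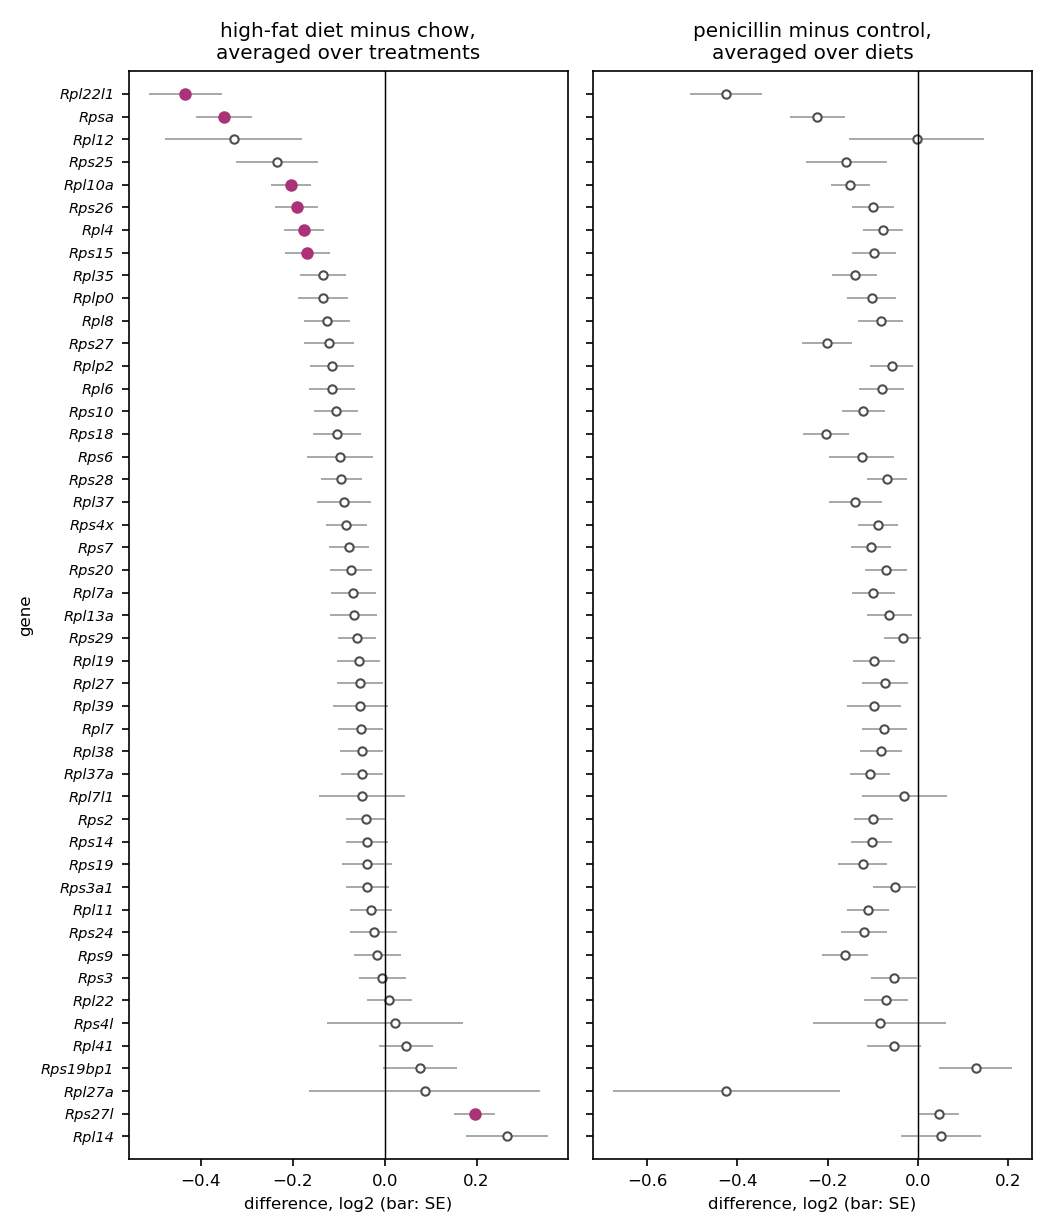
Difference (log2, point) and its standard error (bar) for the 47 tested members, for high-fat diet minus chow averaged over treatments (left) and penicillin minus control averaged over diets (right); filled points passed limma at an adjusted p under 0.05. Most points lie left of 0 in both panels, by about 0.1, 7 are filled on the left and none on the right.

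By role, the medians lay close together. Averaged over treatments, the median diet difference was -0.06 in the large subunit (2 of 22 lower) and -0.08 in the small subunit (3 of 20 lower), and for penicillin the medians were -0.08 and -0.10. All 20 small subunit members tested had a diet difference below 0, the nearest to 0 being Rps3 at -0.01 ± 0.05. The stalk proteins Rplp0 and Rplp2, which recruit translation factors, differed by -0.13 ± 0.05 and -0.11 ± 0.05 with diet and by -0.10 ± 0.05 and -0.06 ± 0.05 with penicillin, and neither passed (limma, smallest adjusted p = 0.117). Rpl12, at the base of the stalk, had a wide spread, -0.33 ± 0.15 with diet and -0.00 ± 0.15 with penicillin. It had a dim probe set (mean 6.61) and did not pass for diet (limma, adjusted p = 0.163). Rps25, which some viral and cellular mRNAs need for internal initiation, stood at -0.23 ± 0.09 with diet. It too had a dim probe set (mean 6.98) and did not pass (limma, adjusted p = 0.102). The 5 tested others were mixed: beside Rpl22l1 and Rps27l, which moved opposite ways with diet, Rpl7l1 (-0.05 ± 0.09), Rps19bp1 (0.08 ± 0.08) and Rps4l (0.02 ± 0.15) did not pass.

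Ribosomal protein genes have many processed pseudogenes, so the probe sets of a gene were compared. The 50 members had 106 probe sets, 95 above the floor, and 26 members had 1 probe set alone. Of the 21 with more than 1 above the floor, 15 had all of them on 1 side of 0 for the averaged diet difference. Those that differed most among their probe sets in any comparison were Rps3, Rpl7l1, Rps24, Rpl41 and Rpl13a. Rps3 ran from -0.43 to 0.23 for diet over 3 probe sets, the outer 2 of them dim, while the bright set used here gave -0.01. Rps24 ran from -0.06 to 0.23 over 6, and the value above 0 came from a dim set. Rpl41 ran from -0.10 to 0.09 over 4, Rpl13a from -0.14 to -0.00 over 4 and Rpl7l1 from -0.10 to -0.04 over 3. For averaged penicillin the 4 Rpl13a probe sets were split. The set used here gave -0.06 and the next brightest -0.09, while the less bright ones gave 0.04 and 0.17. Agreement of probe sets in sign was counted for diet only. A further 110 probe sets carried several symbols, at least 1 of them that of a ribosomal protein, and are counted here without naming a gene. Of the 103 tested, 91 were below 0 for diet, 11 lower and 1 higher past the threshold, with a median of -0.08, and 95 were below 0 for penicillin, 0 past the threshold (limma), with a median of -0.09. Among the 13788 genes, 52.3% were below 0 for diet, with 4.85% called lower and 9.63% higher, and 51.6% were below 0 for penicillin. The probe sets of several symbols were added after the values had been seen.

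Whether the shift was that of bright probe sets at large was measured by splitting at a mean level of 12, a split chosen after the values had been seen. Of 35 members above it, 32 (91.4%) were below 0 for diet, with a median of -0.07, while of 499 other genes above it 42.3% were below 0, with a median of 0.02. For penicillin the shares were 97.1% and 50.1%, with medians of -0.10 and 0.00. Of the 12 dimmer members, 8 (66.7%) were below 0 for diet, with a median of -0.07 and a range from -0.43 to 0.27. For penicillin 10 (83.3%) of these 12 were below 0, with a median of -0.11.

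The genes that build or use ribosomes were read beside the members. Ribosome biogenesis genes, which transcribe and process ribosomal RNA and assemble the subunits, were lower with diet in 13 of 43 and higher in 1, with a median of -0.17. Of all genes tested, 4.85% were called lower and 9.63% higher, with a median of -0.01. The polymerase subunit Polr1b fell by 0.54 ± 0.10, the initiation factor Rrn3 of the same polymerase by 0.48 ± 0.12, the nucleolar protein Wdr43 by 0.45 ± 0.08 and the processing factor Rrp9 by 0.25 ± 0.05. The single higher gene, named after its value was seen, was the maturation factor Sbds at 0.20 ± 0.06. Adjusted p for these 5 ran from 0.00348 to 0.0367 (limma). With penicillin 0 of the 43 passed (limma) and their median was 0.05, on the other side of 0 from the ribosomal proteins.

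Mitochondrial ribosomal proteins, which form the separate ribosome of mitochondria, were called higher with diet in 10 of 76 and lower in 1, with a median of 0.06. Of all genes tested, 9.63% were called higher and 4.85% lower, with a median of -0.01. Mrpl48 (0.38 ± 0.07), Mrps28 (0.28 ± 0.05) and Mrps18c (0.23 ± 0.05) rose and Mrpl47 fell by 0.30 ± 0.07, with adjusted p of 0.00453, 0.00416, 0.0127 and 0.013 (limma). For penicillin 0 passed, with a median of -0.01.

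Of 22 translation factors and other proteins whose mRNAs also start with a TOP motif, 1 was lower with diet, the poly(A)-binding protein Pabpc1 (-0.19 ± 0.04, limma adjusted p = 0.0156), 0 were higher, and the median was 0.00. The elongation factor Eef2 stood at -0.15 ± 0.05 and did not pass (limma, adjusted p = 0.0956). For penicillin 18 of the 22 were below 0, 0 passed, and the median was -0.06. Of 24 genes of mTORC1 signalling, 1 was higher with diet, the GTPase Rragd (0.40 ± 0.11, limma adjusted p = 0.0258), with a median of 0.03, and 0 passed for penicillin, with a median of 0.02. Over all genes tested, 4.85% were called lower with diet and 9.63% higher, so 1 call in a list of this size is no more than that share. Whether the lists differ from one another was not tested.

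**Figure D5:**
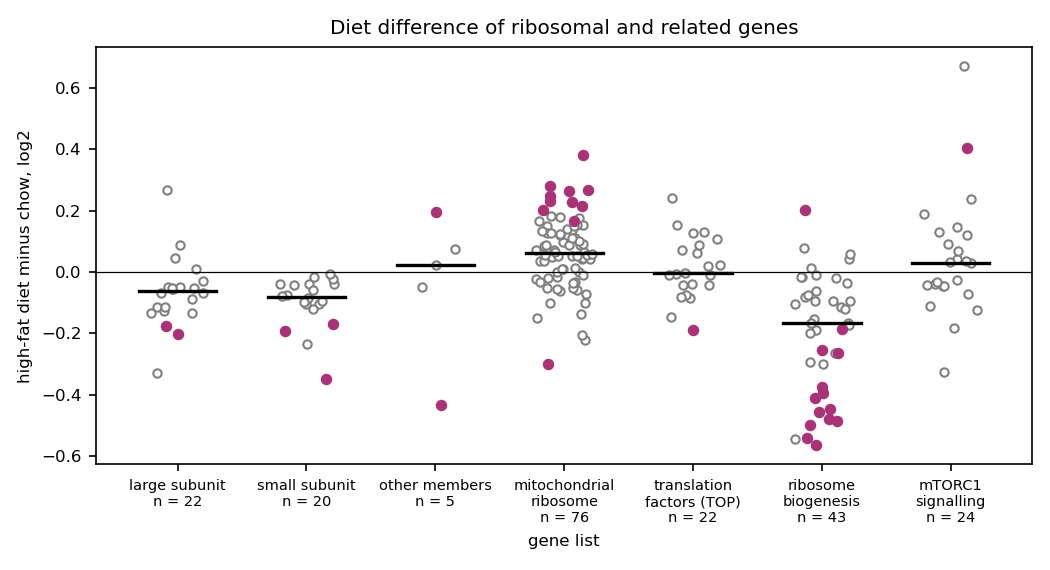
High-fat diet minus chow, averaged over treatments (log2, vertical axis), for each tested gene of 7 lists (horizontal axis, n below each name); filled points passed limma at an adjusted p under 0.05 and the bar is the list's median. The large and small subunit lists have medians of -0.06 and -0.08, the 5 other members a median of 0.02, the biogenesis list lower with a median of -0.17, and the mitochondrial ribosome list above 0 with a median of 0.06.

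Markers of other liver cells also differed between the diets. Macrophage and Kupffer cell markers were higher in 7 of 8, with a median of 0.70, endothelial markers in 5 of 6 and stellate cell markers in 4 of 6. Of all genes tested, 9.63% were called higher with diet and 4.85% lower. The summed level of the 8 macrophage markers was 12.92 to 13.08 in control mice on chow, 12.28 to 12.75 in penicillin mice on chow, 13.34 to 13.48 in control mice on high-fat diet and 12.88 to 13.49 in penicillin mice on high-fat diet. The summed level of 7 hepatocyte markers lay between 16.82 and 16.91 over all groups, with 1 of 7 lower on high-fat diet (Cps1, -0.26). The sum is of linear values and rests mostly on Alb, Apoa1 and Ttr, whose group means lay between 14.79 and 15.03. A dim marker such as Ass1, with group means of 7.33 to 7.70, hardly weighs in it. For penicillin the macrophage markers were below 0 in 8 of 8, with a median of -0.34, and the endothelial markers in 6 of 6, with a median of -0.18; 0 of either list passed (limma). The stellate cell markers were below 0 in 3 of 6, with a median of -0.06 and 0 passed. The adipocyte markers Adipoq and Lep lay below the floor in all groups, and 0 of 3 B cell, 0 of 4 T cell and 0 of 3 cholangiocyte markers tested passed for diet or penicillin (limma). The part of other cell types in the ribosomal protein values was not tested.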

How the data were processed

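Liver RNA of 12 mice was hybridised to Affymetrix 3′ expression arrays, 1 array per mouse. The authors deposited log2 expression values for 45101 probe sets, computed by RMA (R package affy), per the submitters' processing notes (versions: not given in the sources used here). This method brings the arrays to 1 distribution, so an overall change in RNA amount is removed. Array medians lay between 5.52 and 5.59, and precision is limited by how few arrays there are. Within groups, arrays correlated at 0.991 to 0.996.

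Gene names come from the platform annotation at GEO: 34945 had 1 symbol, 932 several, 9160 none and 64 were controls. For each of 18193 genes the probe set of highest mean was kept, and 13788 genes whose signal exceeded log2 5.0, the 40th percentile of the table, on 3 or more arrays were tested with limma 3.58.1 in R 4.3.3. The fit used 4 group means on 12 arrays (8 residual degrees of freedom), 7 contrasts, and Benjamini-Hochberg over all genes tested at an adjusted p under 0.05. Replicates are biological, per the labels. Lists are described by counts and medians, with no test. The steps were tested on simulated data.

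The members and lists were chosen with earlier results of these data known. Per comparison, the text names the members past the threshold or, where fewer than 8 passed, those with the smallest p up to 8. It also names stalk proteins, Rpl11, non-standard members, the 5 of widest residual SD, the 5 whose probe sets differ most, and up to 4 genes of each related list by p. Alternatives covered the filter, probe set choice, array weights, trended and robust eBayes, median centring, cyclic loess, the arrays fitted, a replicate block, the 18S signal, the threshold and leaving out each array. Motifs were searched in RefSeq promoters of GRCm38.p6.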

Additional observations from a re-analysis of the deposited data

How the results depend on the processing

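The median difference of the members kept its sign under every alternative tried in the 6 comparisons other than the interaction. No median moved by more than the within-group SD of the array medians, 0.04, but that SD is large beside the medians themselves. The median ran from -0.11 to -0.04 for penicillin on chow and from -0.12 to -0.06 for diet in penicillin mice. It ran from -0.11 to -0.06 for averaged penicillin and from -0.09 to -0.05 for averaged diet. The counts moved more. For penicillin on high-fat diet 1 member in place of 0 passed with array weights and without the 3 arrays of low 18S signal, and 0 to 1 when single arrays were left out. For diet in control mice 2 passed with array weights. For diet in penicillin mice the count of 3 became 6 with the stricter filter, 5 with the mean of probe sets, 6 with cyclic loess, 5 with array weights, 7 with trend and robust variance, 7 at an adjusted p under 0.1 and 0 with only the arrays compared, and it ran from 1 to 3 when single arrays were left out. For averaged penicillin 1 in place of 0 passed with array weights, with the 18S covariate, without the 3 arrays and at an adjusted p under 0.1, and 0 to 1 when single arrays were left out. For averaged diet 7 became 3 without the 3 arrays and ran from 5 to 8 when single arrays were left out. The cause was not tested. Fewer arrays in the fit leave fewer degrees of freedom.

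The interaction of Rpl41, 0.10, reversed to -0.077 without probe sets open to cross-hybridisation and to -0.042 without the 3 arrays, and was past no threshold. Among the named genes, 1295 values kept their side of the threshold, 37 passed where they had not, 39 no longer passed and 2 reversed. Most of the 1295 were of genes that passed neither in the main fit nor in the alternative. The 39 all fell on the 7 calls for averaged diet and the 3 for diet in penicillin mice. For averaged diet Rps15 lost its call in 16 of 24 alternatives, while Rpl22l1 and Rps26 lost theirs in 0. In penicillin mice Rps27l lost its call in 7 of 25, Rpl22l1 in 6 and Rpsa in 3. Median centring and cyclic loess moved the median of all genes by at most 0.02.

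With the replicate number as a block, averaged diet called 7 members (2 higher, 5 lower) and diet in penicillin mice 3, the counts of the fit without it, although Rps15 dropped out (adjusted p = 0.068, limma) and Rpl14 passed. The labels do not say that the numbers pair the mice. Of 18 pairs with the same number, 3 had deviations correlated over 0.1, with a range from -0.23 to 0.172. Pairs with unlike numbers were not set beside them, so these values cannot settle whether the numbers pair the mice.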
